A study of Mus musculus with 48 samples.

Results

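The proteins that bind the thick filament and its centre line were followed as 7 genes, listed by name with earlier results of these data known. These were the myomesin genes Myom1, Myom2 and Myom3, the myosin-binding protein genes Mybpc1, Mybpc2 and Mybph, and the titin gene Ttn. They were 7 of the 27179 genes in the count table, and all 7 passed the filter on low counts in every fit. Messenger RNA was sequenced from hindlimb muscle of adult and E18.5 (late fetal) male mice of the inbred strain FVB/NJ. In each leg the study paired a slow-biased muscle, richer in slow fibres, with a fast-biased neighbour: soleus with gastrocnemius in the shank, and vastus intermedius with vastus lateralis in the thigh. The adult groups used here held 6 soleus, 5 vastus intermedius, 6 vastus lateralis and 6 gastrocnemius libraries, and each E18.5 group held 6; the labels name no treatment and no engineered allele for any of them. The series dates the adults to postnatal day 56, and the protocol gives 3 to 4 months as the age at which adult mice were obtained.

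The 47 libraries held 14935541 to 32383982 counts, with a median of 22899843. One library labelled adult vastus intermedius was left out because it went against its label: scaled by total counts it held 11381 CPM of the embryonic myosin gene Myh3 and 8051 CPM of Ttn, against 4.97 to 18.9 CPM and 27463 to 37114 CPM in the other adult vastus intermedius libraries and 10968 to 16963 CPM and 6876 to 8856 CPM in E18.5 vastus intermedius. Animals are lettered A to F within each stage by the date tag of their columns, so adult animal B has no vastus intermedius value. The skeletal muscle fibre list (Acta1, Ckm, Tnnc2, Tnnt3 and Ryr1) summed to 40940 to 207700 CPM in the adult libraries and 6470 to 31600 CPM in the E18.5 libraries. In it Tnnc2 and Tnnt3 encode fast fibre troponins, so the list is not free of fibre type.

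A sarcomere is held together at its middle by the M-band, where myomesin dimers cross-link neighbouring thick filaments, and titin spans from the Z-disc to the M-band as a spring and a ruler for thick filament length. Myomesin-1 is present in all striated muscle, myomesin-2 (M-protein) marks fast fibres, and myomesin-3 is found in slow and intermediate fibres. Myosin-binding protein C sits in stripes on the thick filament and tunes how myosin heads reach actin; Mybpc1 encodes the slow skeletal form and Mybpc2 the fast skeletal form, and Mybph encodes the smaller relative myosin-binding protein H.

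The genes lie apart in the genome (GRCm38): Myom1 on chromosome 17 (71003332 to 71126856), Myom2 on chromosome 8 (15057653 to 15133420), Myom3 on chromosome 4 (135758800 to 135815571), Mybpc1 on chromosome 10 (88518279 to 88605229), Mybpc2 on chromosome 7 (44501699 to 44524715), Mybph on chromosome 1 (134193418 to 134201237) and Ttn on chromosome 2 (76703980 to 76982557). The 250 bases before the start site of the RefSeq promoter table (build GRCm38.p6) are shown for the 4 genes that parted most by fibre bias among adults, Myom3 and Mybpc1 on the slow-biased side and Mybpc2 and Mybph on the fast-biased side. These start sites lie inside the gene spans given above, which begin at the outermost RefSeq start, by 915 bases in Myom3, 77 in Mybpc1, 46 in Mybpc2 and 30 in Mybph. RefSeq promoter windows matched 6 of the 7 genes; Myom2 had none. Capitals mark matches to 3 motifs of muscle promoters, searched on both strands: the E-box CANNTG, bound by MyoD-family factors, the MCAT element CATTCC, bound by TEAD factors, and the A/T-rich MEF2 motif. The sequences run 5′ to 3′ on the strand of the gene.
Myom3, chr4:135759465-135759714, plus strand: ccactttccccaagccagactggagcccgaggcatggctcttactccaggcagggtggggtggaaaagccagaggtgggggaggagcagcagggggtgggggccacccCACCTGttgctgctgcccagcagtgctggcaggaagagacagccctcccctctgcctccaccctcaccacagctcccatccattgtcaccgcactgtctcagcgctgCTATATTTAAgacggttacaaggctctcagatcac
Mybpc1, chr10:88605153-88605402, minus strand: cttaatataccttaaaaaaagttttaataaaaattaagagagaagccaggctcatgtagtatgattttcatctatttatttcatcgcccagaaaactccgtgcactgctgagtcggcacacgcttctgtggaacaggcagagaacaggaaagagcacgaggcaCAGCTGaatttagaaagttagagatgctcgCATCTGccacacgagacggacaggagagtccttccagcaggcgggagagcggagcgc
Mybpc2, chr7:44524670-44524919, minus strand: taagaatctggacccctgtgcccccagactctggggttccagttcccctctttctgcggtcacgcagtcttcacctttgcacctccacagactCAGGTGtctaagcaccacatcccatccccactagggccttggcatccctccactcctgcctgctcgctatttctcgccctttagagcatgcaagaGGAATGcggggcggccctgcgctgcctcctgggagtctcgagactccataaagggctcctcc
Mybph, chr1:134193198-134193447, plus strand: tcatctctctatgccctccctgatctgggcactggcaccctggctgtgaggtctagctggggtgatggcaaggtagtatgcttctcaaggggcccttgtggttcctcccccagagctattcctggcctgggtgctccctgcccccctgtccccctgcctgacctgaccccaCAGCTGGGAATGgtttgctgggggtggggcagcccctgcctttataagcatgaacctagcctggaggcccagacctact

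The slow-side Myom3 window held an E-box 142 bases before the start site and a MEF2 match 35 bases before it. The Mybpc1 window held E-boxes 87 and 57 bases before the start site and neither of the other motifs, and in GENCODE it overlaps an exon of the antisense transcript Gm48752. Both fast-side windows held an E-box and an MCAT match. In Mybpc2 these lay 157 and 62 bases before the start site. In Mybph they were contiguous, at 79 and 73 bases. Of the windows not shown, that of Ttn held an E-box and a MEF2 match and that of Myom1 held 3 E-boxes. Among 27025 promoter windows of the same length, 66.0% held an E-box, 12.6% an MCAT match and 3.01% a MEF2 match, and a match is a description of letters, not a binding site.

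Levels below are CPM, a gene's counts scaled to the size of its library, after TMM scaling, unless given per kilobase of exon, and differences are log2 fold changes from edgeR with their standard errors; a gene was called at a Benjamini-Hochberg adjusted p under 0.05 over all genes tested.

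**Figure D1:**
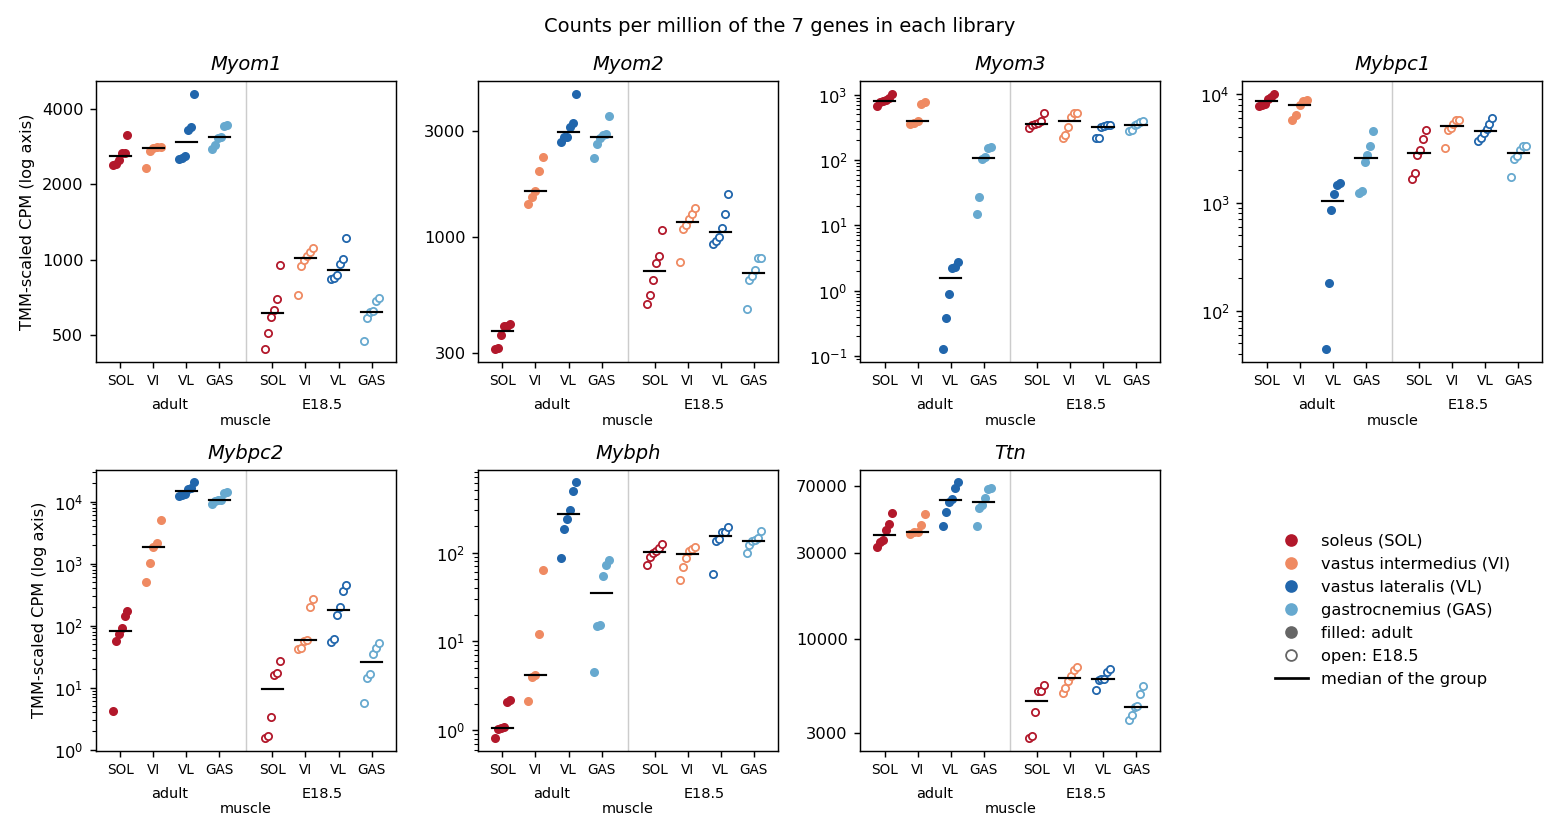
TMM-scaled CPM of each gene (log axis) in every library, by muscle, with adults as filled points, E18.5 as open points and a line at each group's median. Myom3, Mybpc1, Mybpc2, Mybph and Myom2 spread apart across the adult muscles, 574-fold in group means for Myom3, while at E18.5 the group means span 1.29-fold for Myom3 and 19.1-fold for Mybpc2.

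In adult muscles the family members parted by fibre bias. Comparing slow-biased with fast-biased muscles, Myom3 (5.82 ± 0.38, adjusted p = 3.63e-12) and Mybpc1 (2.47 ± 0.36, adjusted p = 2.48e-06) were higher, and Mybpc2 (-4.90 ± 0.43, adjusted p = 5.51e-10), Mybph (-4.54 ± 0.58, adjusted p = 3.04e-07) and Myom2 (-1.88 ± 0.10, adjusted p = 3.19e-13) were lower. Ttn was lower by a smaller step (-0.50 ± 0.12, adjusted p = 0.000854), and Myom1 was not called (-0.20 ± 0.09, adjusted p = 0.0602, and 0.145 with total counts in place of TMM scaling). The count of 6 of 7 genes called stood against 66.0% of all genes tested. The median difference of the 7 genes was -0.50, against 0.08 over all genes. In the same comparison all 5 slow fibre markers were higher and all 5 genes of the skeletal muscle fibre list, with its fast troponins, were lower. Of the fast fibre markers 1 was higher and 4 were lower (list median -5.51). All 4 endothelial, 4 leukocyte and 4 Schwann cell markers were higher, with list medians of 0.75, 0.94 and 1.08. Of 4 markers each, 3 smooth muscle, 2 fibroblast, 2 tendon and 1 adipocyte marker were higher and 0 lower. Satellite cell and myoblast markers were 3 higher and 1 lower, and developmental fibre and muscle spindle markers 2 higher and 1 lower each. All 3 cardiac markers tested were higher. The part of these cells in the differences was not tested, and in bulk tissue fewer fibres of a type and less RNA per fibre cannot be told apart.

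**Figure D2:**
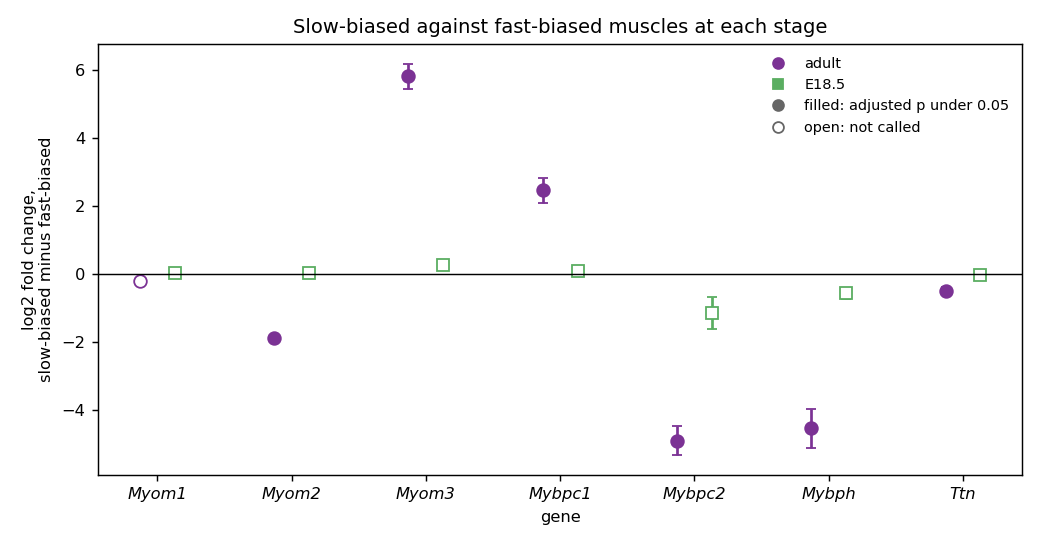
Log2 fold change of slow-biased minus fast-biased muscles for each gene, adults (circles) beside E18.5 (squares), with standard errors; filled symbols passed an adjusted p of 0.05. Adult values run between -4.90 for Mybpc2 and 5.82 for Myom3, and the E18.5 values lie between -1.14 and 0.26 with none called.

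Myom3, which encodes the myomesin of slow and intermediate fibres, had the steepest gradient of the M-band genes. Its lowest, median and highest CPM were 682, 813 and 1031 in soleus. The 5 adult vastus intermedius libraries held 391, 782, 731, 350 and 366 CPM in animals A, C, D, E and F. Vastus lateralis held 0.13, 1.57 and 2.75 CPM, and gastrocnemius 14.8, 106 and 156 CPM. Soleus overlapped vastus intermedius, and vastus intermedius, gastrocnemius and vastus lateralis formed 3 separate ranges in falling order. The lowest vastus lateralis value came from 2 counts, under the 3 counts taken as the floor of detection in a library.

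Myom2, the fast-fibre myomesin, ran the other way, with the soleus far below every other adult muscle. It held 312, 377 and 403 CPM in soleus (lowest, median, highest). The 5 vastus intermedius libraries held 1397, 1507, 1601, 2277 and 1978 CPM in animals A, C, D, E and F. It held 2660, 2959 and 4400 CPM in vastus lateralis and 2271, 2818 and 3508 CPM in gastrocnemius. Soleus stood apart from all other groups, while each of the remaining neighbours overlapped. Myom1, the general myomesin, was nearly level, at 2386, 2587 and 3143 CPM in soleus and 2321, 2706, 2798, 2802 and 2805 CPM over the vastus intermedius libraries, against 2512, 2943 and 4578 CPM in vastus lateralis and 2752, 3069 and 3426 CPM in gastrocnemius.

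Mybpc1, the slow myosin-binding protein C gene, held 7729, 8621 and 10122 CPM in soleus. The 5 vastus intermedius libraries held 6444, 8953, 8595, 5834 and 7959 CPM in animals A, C, D, E and F. The fast-biased muscles also held it, with 44.3, 1024 and 1508 CPM in vastus lateralis and 1220.4, 2563 and 4594 CPM in gastrocnemius. Both slow-biased groups lay above both fast-biased groups without overlap.

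Mybpc2, the fast form, held 4.15, 82.2 and 169 CPM in soleus. The 5 vastus intermedius libraries held 1858, 503, 1009.8, 4956 and 2157 CPM in animals A, C, D, E and F. It held 12246 to 20271 CPM in vastus lateralis, with a median of 14538 CPM, and 9132 to 14287 CPM in gastrocnemius, with a median of 10753 CPM. Soleus, vastus intermedius and the fast-biased muscles formed separate ranges, and vastus lateralis overlapped gastrocnemius.

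Mybph was low in adult soleus, at 0.82, 1.07 and 2.21 CPM, from 17 to 42 counts in a library. The 5 vastus intermedius libraries held 11.998, 2.15, 3.94, 62.8 and 4.24 CPM in animals A, C, D, E and F. Vastus lateralis held 86.1, 269 and 614 CPM, and gastrocnemius 4.47, 34.9 and 81.9 CPM. Vastus lateralis lay above every other adult muscle without overlap, and the others overlapped their neighbours.

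Ttn, with 104320 bases of exon, took 2.45 to 4.50% of all counts in an adult library. It held 32255, 37660 and 49733 CPM in soleus and 38010, 39003, 39137, 43003 and 48987 CPM over the vastus intermedius libraries, against 42220, 58668 and 73666 CPM in vastus lateralis and 42424, 57776 and 68346 CPM in gastrocnemius. The ranges of slow-biased and fast-biased muscles overlapped. With total counts in place of TMM scaling the difference was -0.16 (adjusted p = 0.157) and Ttn was not called, and under that scaling the median of all genes moved by 0.41 in place of 0.08.

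The gradient was then resolved by pairs of muscles. In the shank pair, soleus minus gastrocnemius, 6 of 7 genes were called (53.5% of all genes), led by Mybpc2 (-6.96 ± 0.63), Mybph (-4.83 ± 0.84), Myom3 (3.19 ± 0.45) and Myom2 (-2.93 ± 0.14). The Ttn call of this pair (-0.53, adjusted p = 0.00933) was lost with total counts (-0.155, adjusted p = 0.335) and with the left-out library kept (-0.545, adjusted p = 0.19). In the thigh pair, vastus intermedius minus vastus lateralis, the same 6 genes were called (52.2% of all genes), led by Myom3 (8.46 ± 0.61), Mybph (-4.24 ± 0.79), Mybpc1 (3.15 ± 0.53) and Mybpc2 (-2.84 ± 0.56). Myom1 was not called in either pair. Ttn in the thigh pair, at -0.465 ± 0.174 (adjusted p = 0.028), lost its call without any of the animals C, D, E or F (adjusted p = 0.0863, 0.0541, 0.0943 and 0.0974), with total counts (-0.166, adjusted p = 0.345) and with the left-out library kept (-0.704, adjusted p = 0.0794). Without animal E the Mybph difference of the thigh pair was -5.91 and that of Mybpc2 -3.47, and over both pairs Mybph was at -5.34. With the animal as a block Mybph in the thigh pair was at -4.99, and with the left-out library kept at -3.41.

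The pairs did not differ by the same steps. The shank difference minus the thigh difference was called for 3 of 7 genes (8.10% of all genes): Myom3 at -5.28 ± 0.69 (adjusted p = 3.57e-05), Mybpc2 at -4.12 ± 0.73 (adjusted p = 0.000798) and Myom2 at -2.09 ± 0.20 (adjusted p = 3.82e-07). The Myom3 step was the larger one in the thigh, where vastus lateralis lay near 0, and the Mybpc2 and Myom2 steps were larger in the shank, where soleus was low. Without animal E the Mybpc2 value was -3.30.

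Setting the slow-biased muscles against each other, soleus minus vastus intermedius, 3 of 7 genes were called (17.2% of all genes), all lower in soleus (11.6% of all genes were called lower): Mybpc2 (-4.55 ± 0.57), Mybph (-3.60 ± 0.85) and Myom2 (-2.28 ± 0.14). The Mybph value rested in part on the vastus intermedius of animal E; without that animal it was -2.23 (adjusted p = 0.0886) and was not called, and Mybpc2 was at -3.71. With the left-out library kept Mybph was at -4.44, and with the animal as a block at -3.00 (adjusted p = 0.0099). Myom3 (0.66 ± 0.44, adjusted p = 0.334) and Mybpc1 (0.20 ± 0.51, adjusted p = 0.843) were not called. Slow fibre markers summed to 29240 to 50330 CPM in soleus and 6278 to 20530 CPM in vastus intermedius.

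Setting the fast-biased muscles against each other, vastus lateralis minus gastrocnemius, 2 of 7 genes were called (5.64% of all genes): Myom3 was lower (-5.94 ± 0.56, adjusted p = 3.81e-07) and Mybph was higher (3.00 ± 0.69, adjusted p = 0.00987) in vastus lateralis. The Mybph call was lost without animal D (2.53, adjusted p = 0.0566) and with the left-out library kept (3.00, adjusted p = 0.0573). Mybpc1 stood at -1.57 ± 0.49 (adjusted p = 0.064). It passed with the animal as a block (-1.66, adjusted p = 0.049), with DESeq2 (-1.56, adjusted p = 0.0394) and in the 8-group fit (-1.57, adjusted p = 0.00886). All 5 slow fibre markers were lower in vastus lateralis, with summed CPM of 0.256 to 19.2 against 82.0 to 3140 in gastrocnemius. Beside the higher Mybph, the developmental fibre list (Myh3, Myh8, Actc1 and Tnnt2) summed to 350 to 3593 CPM in vastus lateralis and 74.2 to 302 CPM in gastrocnemius, of which Actc1, the cardiac actin gene also used by immature fibres, made 321 to 3573 CPM and 55.1 to 284 CPM. The value of 3573 CPM was that of animal D alone, and the other vastus lateralis libraries held 321 to 732 CPM of Actc1. The embryonic and perinatal myosin genes Myh3 and Myh8 reached at most 13.1 and 18.8 CPM in those vastus lateralis libraries, and their part in the Mybph difference was not tested.

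Across the leg, in vastus intermedius minus gastrocnemius, 4 of 7 genes were called (40.2% of all genes): Myom3 (2.53 ± 0.45) and Mybpc1 (1.58 ± 0.51) were higher, and Mybpc2 (-2.42 ± 0.55) and Myom2 (-0.65 ± 0.14) were lower in vastus intermedius. The Mybpc1 call was lost without animal A (1.49, adjusted p = 0.0617). Mybph (-1.24 ± 0.71, adjusted p = 0.175) and Ttn (-0.43 ± 0.17, adjusted p = 0.0507) were not called here and passed with the animal as a block, at -1.64 (adjusted p = 0.0454) and -0.49 (adjusted p = 0.012). Mybph also passed without animal E (-2.54, adjusted p = 0.00681), where Mybpc2 was at -3.06, and Ttn with DESeq2 (adjusted p = 0.0137), in the 8-group fit (adjusted p = 0.026) and without animal B (adjusted p = 0.023).

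Per kilobase of exon, the scale on which genes can be set beside each other, the makeup of each family changed across the adult muscles. Myom3 made 21.6 ± 1.3% (SD, n = 6) of the myomesin transcripts in soleus and 10.2 ± 4.0% (SD, n = 5) in vastus intermedius, against 0.0237 ± 0.0200% in vastus lateralis and 1.55 ± 1.07% in gastrocnemius (SD, n = 6 each). Myom2 made 10.6% in soleus and 38.01% in vastus intermedius, against 53.6% in vastus lateralis and 49.9% in gastrocnemius, and Myom1 made up the rest. Mybpc2 made 1.11 ± 0.72% of Mybpc1 plus Mybpc2 in soleus (SD, n = 6) and 22.5 ± 16.3% in vastus intermedius (SD, n = 5), against 94.7 ± 4.0% in vastus lateralis and 82.7 ± 8.6% in gastrocnemius (SD, n = 6 each). The vastus intermedius share of Mybpc2 ranged between 5.81% and 48.3% over its 5 animals, and no adult soleus library passed 1.98%. Against this, the summed myomesins stood at 187 ± 24 per 100 Ttn in soleus and 235 ± 40 in vastus intermedius, against 218 ± 51 in vastus lateralis and 209 ± 33 in gastrocnemius, all per kilobase, with overlapping ranges.

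**Figure D3:**
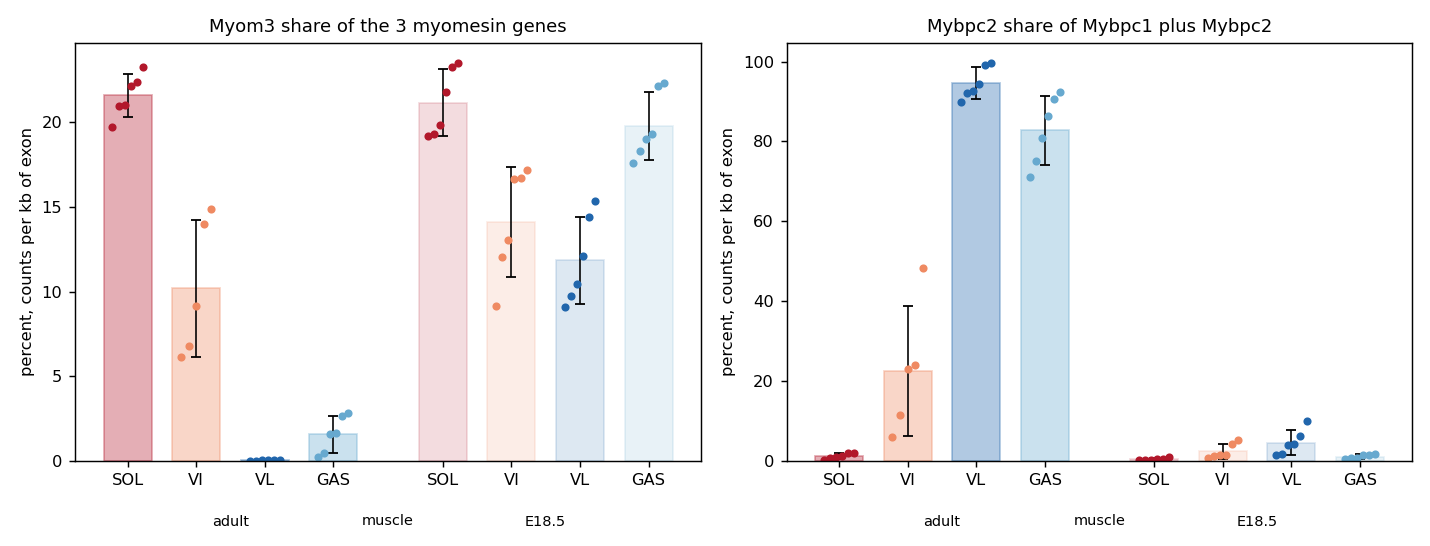
Share of Myom3 in the 3 myomesin genes (left) and of Mybpc2 in Mybpc1 plus Mybpc2 (right), in percent of counts per kilobase of exon, by stage and muscle; bars are means, error bars SD and points libraries. Among adults Myom3 lies between 21.6% in soleus and 0.0237% in vastus lateralis and Mybpc2 between 1.11% and 94.7%, while at E18.5 Myom3 lies between 11.9% and 21.2% and Mybpc2 at or under 4.50%.

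Before birth none of this pattern was called. At E18.5 the slow-biased minus fast-biased comparison called 0 of 7 genes (0.368% of all genes), soleus minus gastrocnemius 0 of 7 (0.286%) and vastus intermedius minus vastus lateralis 0 of 7 (0.0317%) by edgeR, while 1738, 1351 and 1013 of all genes stood at an unadjusted p under 0.05. With the animal as a block the first called 212 genes in place of 58 and the second 101 in place of 45, still with 0 of the 7. DESeq2 called 1 of the 7 in the first of these, Mybph, at -0.56 (adjusted p = 0.0191), and 262 of all genes in place of 58. In edgeR Mybph was at -0.56 ± 0.15 (adjusted p = 0.103), and without E18.5 animal B it was called, at -0.66 (adjusted p = 0.00966), as it was in vastus intermedius minus vastus lateralis (-0.93, adjusted p = 0.0175). Without that animal these comparisons called 237 and 100 of all genes, in place of 58 and 5. The authors' deposited table also had Mybph lower in E18.5 slow-biased muscles, at -0.56 (adjusted p = 0.0397). Mybph held 72.1, 101 and 125 CPM in soleus and 49.2, 95.4 and 115 CPM in vastus intermedius, against 56.7, 154 and 192 CPM in vastus lateralis and 99.2, 136 and 175 CPM in gastrocnemius.

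The largest E18.5 difference by size was that of Mybpc2, at -1.14 ± 0.48 (adjusted p = 0.356), with wide spread inside each group. Myom3, which differed most among adults, was at 0.26 ± 0.13 (adjusted p = 0.489). It held 307, 358 and 517 CPM in soleus and 218, 389 and 527 CPM in vastus intermedius, against 215, 325 and 349 CPM in vastus lateralis and 278, 347 and 393 CPM in gastrocnemius. Myom1, Myom2, Mybpc1 and Ttn lay between -0.03 and 0.09.

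The change of the slow to fast contrast with age was tested directly. The adult contrast minus the E18.5 contrast was called for 6 of 7 genes (50.8% of all genes): Myom3 at 5.53 ± 0.37, Mybpc1 at 2.35 ± 0.40, Mybph at -4.00 ± 0.56, Mybpc2 at -3.79 ± 0.65, Myom2 at -1.95 ± 0.16 and Ttn at -0.50 ± 0.17 (adjusted p = 0.0102 for Ttn and under it for the other genes). Ttn was not called with total counts alone (-0.115, adjusted p = 0.499), and Mybph was at -4.77 without adult animal E. Myom1 was at -0.28 ± 0.14 (adjusted p = 0.101).

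The E18.5 muscles did differ between thigh and shank, a comparison added here after the values were seen and one for which the study deposited its own table. In thigh minus shank, 5 of 7 genes were called at E18.5, all higher in the thigh (24.8% of all genes were called, and 14.1% were called higher). Mybpc2 differed most, at 3.10 ± 0.51 (adjusted p = 0.0001). It held 41.5, 57.9 and 264 CPM in vastus intermedius and 54.0, 176 and 445 CPM in vastus lateralis, against 1.56, 9.57 and 26.99 CPM in soleus and 5.63, 26.1 and 52.8 CPM in gastrocnemius. Both vastus groups thus lay above soleus without overlap. Vastus intermedius overlapped gastrocnemius, with 41.5 and 44.3 CPM in animals D and F below the highest gastrocnemius library, at 52.8 CPM.

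Mybpc1 (0.73 ± 0.15, adjusted p = 0.000708), Myom2 (0.68 ± 0.12, adjusted p = 0.000223), Myom1 (0.61 ± 0.10, adjusted p = 0.000113) and Ttn (0.48 ± 0.11, adjusted p = 0.00163) were higher in the E18.5 thigh by smaller steps. Mybpc1 was not called in a fit over both stages (0.75, adjusted p = 0.0527). Ttn held 5013, 6032 and 6984 CPM in vastus intermedius and 5177, 6005 and 6785 CPM in vastus lateralis, against 2827, 4516 and 5543 CPM in soleus and 3539, 4212 and 5442 CPM in gastrocnemius. Myom3 (-0.11 ± 0.13, adjusted p = 0.581) and Mybph (-0.06 ± 0.15, adjusted p = 0.818) were not called. The authors' deposited table for the E18.5 region gave 3.03 for Mybpc2, 0.74 for Mybpc1, 0.68 for Myom2, 0.62 for Myom1 and 0.48 for Ttn.

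The skeletal muscle fibre list, which holds the fast troponin genes Tnnc2 and Tnnt3, moved with these genes. All 5 of the list were higher in the E18.5 thigh, with a list median of 0.94, and they summed to 15960 to 27650 CPM in vastus intermedius and 17910 to 31600 CPM in vastus lateralis, against 6470 to 20970 CPM in soleus and 7112 to 15580 CPM in gastrocnemius. Of the fast fibre markers 4 of 5 were higher (median 1.67) and of the slow fibre markers 0 of 5 were called, while 2 of 4 tendon and 3 of 4 satellite cell and myoblast markers were lower in the thigh. Their part in the thigh difference was not tested. Among adults, thigh minus shank called 4 of 7 genes (19.1% of all genes): Mybph (3.30 ± 0.55), Mybpc2 (2.48 ± 0.37) and Myom2 (1.23 ± 0.10) were higher and Myom3 (-3.30 ± 0.36) was lower in the thigh, and whether the thigh difference changed with age was not tested. Slow fibre markers summed to 6278 to 20530 CPM in adult vastus intermedius, against 29240 to 50330 CPM in soleus. In adult vastus lateralis they summed to 0.256 to 19.2 CPM, against 82.0 to 3140 CPM in gastrocnemius. The part of fibre type in the adult thigh difference was not tested. Adult Mybpc1 was at -0.88 ± 0.35 (adjusted p = 0.0827) and was called with total counts (-1.02, adjusted p = 0.0431) and in the 8-group fit (-0.89, adjusted p = 0.0214). The authors' deposited table for the adult region gave 3.15 for Mybph (adjusted p = 0.0297), 0.70 for Mybpc2 (adjusted p = 0.708), 0.69 for Myom2 (adjusted p = 0.396) and -0.94 for Myom3 (adjusted p = 0.645), so 1 of these 4 genes passed there. The fit here took muscle as 4 levels with a library left out. The model behind the deposited values is not known here, so they may not be like for like.

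Between E18.5 and adult life Ttn and Myom1 rose in every muscle, and so did Mybpc2. In adult minus E18.5 all 7 genes were called in soleus (74.7% of all genes), 5 in vastus intermedius (73.1%), 7 in vastus lateralis (78.1%) and 6 in gastrocnemius (78.5%), so the counts were near the background. Stage and date tag cannot be told apart, since no date tag is shared by the stages, and the labels do not say what the date marks. Adult libraries had TMM factors of 0.528 to 0.927 and E18.5 libraries 1.21 to 1.53. With total counts alone the median of all genes moved to -0.78 in soleus, -0.83 in vastus intermedius, -1.27 in vastus lateralis and -1.26 in gastrocnemius, in place of -0.07, -0.08, -0.20 and -0.12. Cell type markers moved with age too. All 5 genes of the skeletal muscle fibre list were higher in adults in each muscle (list medians 1.75 to 3.84). In each muscle all 4 developmental fibre markers and 3 of 4 fibroblast markers were lower. Of the satellite cell and myoblast markers 3 of 4 were lower in vastus lateralis and 4 of 4 in the other muscles. The part of these cell types in the age differences was not tested.

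**Figure D4:**
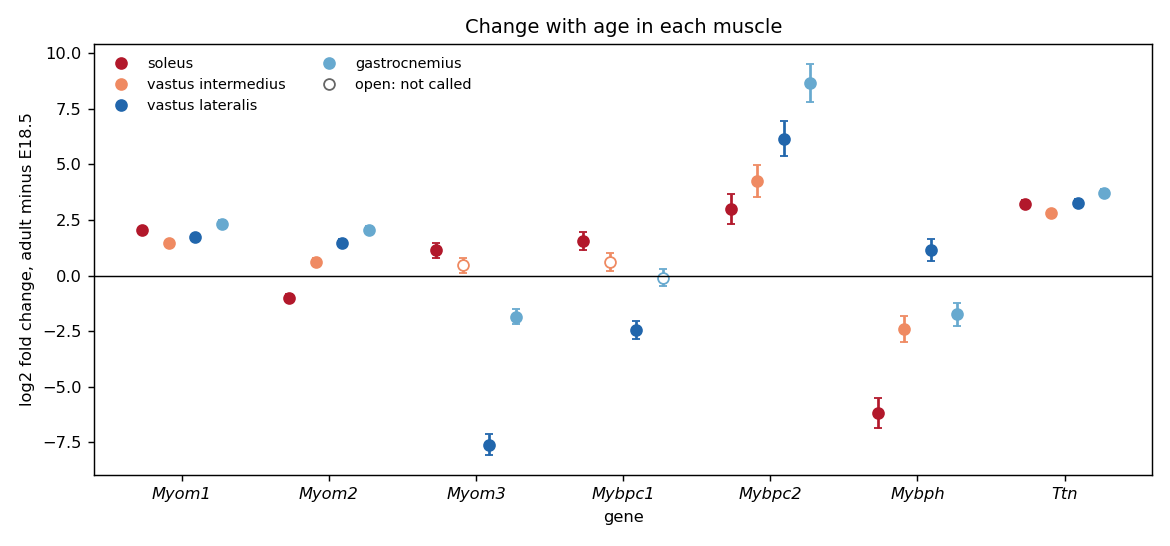
Log2 fold change of adult minus E18.5 in each muscle for the 7 genes, with standard errors; open symbols were not called. Ttn, Myom1 and Mybpc2 lie above 0 in all 4 muscles, Mybph spans -6.18 in soleus to 1.16 in vastus lateralis, and Myom3 spans 1.13 to -7.60.

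Ttn rose by 3.21 ± 0.18 in soleus, 2.79 ± 0.18 in vastus intermedius, 3.27 ± 0.18 in vastus lateralis and 3.73 ± 0.18 in gastrocnemius. Adult libraries held 32255 to 73666 CPM of it and E18.5 libraries 2827 to 6984 CPM, without overlap, and its share of all counts averaged 3.20 to 3.81% in the adult groups and 0.603 to 0.788% in the E18.5 groups. With total counts the rise was 2.05 to 2.59. Myom1 rose by 2.04 ± 0.15, 1.45 ± 0.15, 1.72 ± 0.15 and 2.33 ± 0.15 in the same order, and by 1.345, 0.707, 0.622 and 1.195 with total counts. The sum of the 3 myomesins per 100 Ttn (per kilobase) averaged 187 to 235 in the adult groups, against 744 to 823 in the E18.5 groups. The same Ttn length of 104320 bases was used at both stages, and exon use and coverage along Ttn were not examined.

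Mybpc2 rose by 3.01 ± 0.67 in soleus, 4.25 ± 0.71 in vastus intermedius, 6.16 ± 0.77 in vastus lateralis and 8.67 ± 0.86 in gastrocnemius. With total counts these values were 2.32, 3.47, 5.09 and 7.55, and without adult animal E the vastus intermedius value was 3.63. At E18.5 it made 0.364 ± 0.333% of Mybpc1 plus Mybpc2 per kilobase in soleus, 2.34 ± 1.84% in vastus intermedius, 4.50 ± 3.19% in vastus lateralis and 1.02 ± 0.56% in gastrocnemius (SD, n = 6 each), so the slow form made nearly all of that pair in each E18.5 muscle. Mybpc1 rose in soleus (1.55 ± 0.40) and fell in vastus lateralis (-2.44 ± 0.41), with values of 0.86 and -3.48 by total counts. It was not called in vastus intermedius (0.61 ± 0.41, adjusted p = 0.174) or gastrocnemius (-0.10 ± 0.39, adjusted p = 0.813), and with total counts it was called lower in gastrocnemius (-1.22, adjusted p = 0.0041).

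Myom3 fell with age in vastus lateralis (-7.60 ± 0.48) and gastrocnemius (-1.85 ± 0.34) and rose in soleus (1.13 ± 0.34, adjusted p = 0.00249). The soleus call was lost with total counts (0.43, adjusted p = 0.234), which gave -8.66 in vastus lateralis and -2.97 in gastrocnemius, and vastus intermedius was not called (0.46 ± 0.35, adjusted p = 0.227). In the authors' deposited table over all muscles, coded E18.5 minus adult, Myom3 stood at -0.0004 (adjusted p = 1.0). Its share of the myomesins in soleus was 21.6% in adults and 21.2% at E18.5, while in vastus lateralis it was 0.0237% in adults and 11.9% at E18.5.

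Myom2, like Myom3, changed with age in opposite directions in different muscles. It fell in soleus (-0.99 ± 0.16, adjusted p = 5.76e-07), where adults held 312 to 403 CPM and E18.5 libraries 495 to 1073 CPM without overlap. With total counts the soleus value was -1.69. Myom2 rose in vastus lateralis (1.49 ± 0.16) and gastrocnemius (2.05 ± 0.17), and by 0.398 and 0.915 with total counts. In vastus intermedius it was higher in adults (0.63 ± 0.17, adjusted p = 0.000936), and with total counts this value was -0.12 (adjusted p = 0.407). In the authors' deposited table that pools both slow-biased muscles, coded E18.5 minus adult, Myom2 was at -0.11 (adjusted p = 0.788).

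Mybph fell in soleus (-6.18 ± 0.68), vastus intermedius (-2.41 ± 0.57) and gastrocnemius (-1.75 ± 0.51), and with total counts the values were -6.88, -3.215 and -2.898. The vastus intermedius value was -3.995 without adult animal E and -1.59 with the left-out library kept. Adult soleus held 0.82 to 2.21 CPM and E18.5 soleus 72.1 to 125 CPM. In vastus lateralis adults were higher (1.16 ± 0.50, adjusted p = 0.0335), a value close to the threshold. That call was lost with total counts (0.05, adjusted p = 0.928), with DESeq2 (1.12, adjusted p = 0.0543), with the left-out library kept (1.16, adjusted p = 0.0591), and without adult animal A, C or D or E18.5 animal A, B or E.

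Within a muscle the genes also varied from animal to animal. In adult gastrocnemius, animals A and D had the lowest Myom3, 14.8 and 26.7 CPM against 102 to 156 CPM in the other 4, and the lowest Mybpc1, 1278 and 1220.4 CPM against 2346 to 4594 CPM. The same libraries had the lowest slow myosin gene Myh7, at 28.4 and 15.2 CPM against 721 to 1467 CPM. In adult vastus lateralis, animals C and D had the lowest Mybpc1, 44.3 and 182 CPM against 852 to 1508 CPM, and the highest Mybph, 499 and 614 CPM against 86.1 to 300 CPM. In adult vastus intermedius, animal E had the highest Mybpc2, Mybph and Myom2 of its group and the lowest Myom3 and Mybpc1, with 52395 CPM of the fast myosin gene Myh4 against 1069 to 14949 CPM in the other 4 animals.

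**Figure D5:**
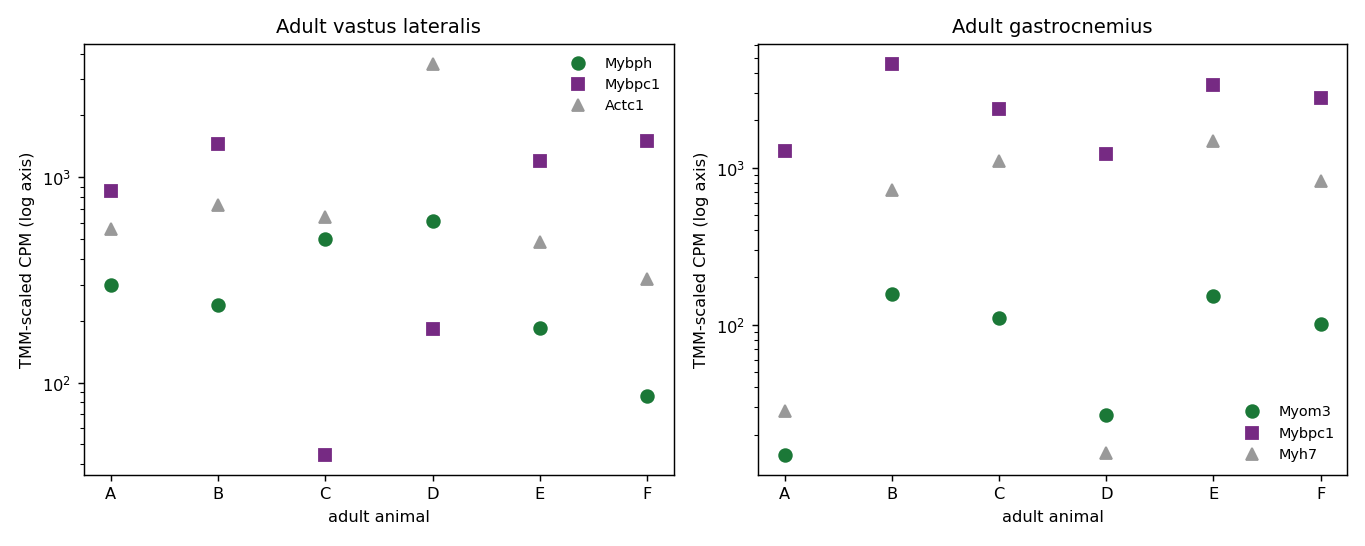
TMM-scaled CPM (log axis) by adult animal in vastus lateralis (Mybph, Mybpc1, Actc1) and gastrocnemius (Myom3, Mybpc1, Myh7), 1 point per library. In vastus lateralis animals C and D have the lowest Mybpc1 and the highest Mybph, and in gastrocnemius animals A and D are lowest for all 3 genes.

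Genes whose level followed each member most closely over the 23 adult libraries, by Pearson r of log2(CPM + 0.5) among 9079 genes, are given as a description, since these libraries share animals and fall into muscles. Myom3 was followed by Myoz2 (0.996), Csrp3 (0.994) and Klhl34 (0.993), of which Myoz2 and Csrp3 encode Z-disc proteins. Mybpc2 was followed by the calcium buffer gene Pvalb (0.990), Kcnc4 (0.981) and an unnamed gene, Myom2 by Nos1 (0.978), Gpd1 (0.977) and Myh4 (0.977), and Mybph by Actc1 (0.960), Tmbim6 (0.936) and Klhl31 (0.932). Mybpc1 was followed by Atp1b1 (0.969), Mb (0.960) and Tpm2 (0.960), Ttn by Neb (0.891), Gm5105 (0.874) and Ago2 (0.870), and Myom1 by Myo18b (0.893), Myo18a (0.859) and Rpl6 (0.856). Between members the closest pair was Mybpc2 with Myom2 (0.942), followed by the opposed pair Mybph with Myom3 (-0.891). Over the 8 group means of both stages Myom3 was followed by Csrp3 (0.995), Tnni1 (0.994) and Myoz2 (0.987) and Mybpc1 by Actn2 (0.989), Fhl1 (0.985) and Pard3b (0.984).

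Other genes of the thick filament and M-band were counted from 5 lists. In slow-biased minus fast-biased muscles they are to be read against 66.0% of all genes called in adults and 0.368% at E18.5. The cardiac myosin-binding protein gene Mybpc3 was near the limit of detection, with 10, 1, 0 and 3 counts summed over all adult soleus, vastus intermedius, vastus lateralis and gastrocnemius libraries, against 182, 278, 192 and 125 at E18.5, and it was called lower in adults in all 4 muscles. Mybphl held at most 0.634 CPM in any library and was not tested. Of 14 M-band partners, 4 were higher and 8 lower in adult slow-biased than fast-biased muscles, led by Fhl2 (4.42 ± 0.30), a LIM protein, and Ckm (-1.81 ± 0.12), the muscle creatine kinase, and 0 were called at E18.5. Of 10 titin-binding and stretch partners, 6 were higher and 1 lower in the adult comparison, led by Ankrd2 (6.46 ± 0.39), a stretch-responsive ankyrin repeat protein, and Fhl1 (4.02 ± 0.33), and 0 were called at E18.5. Of 6 titin splicing regulators 1 was higher and 3 were lower in adult slow-biased muscles, led by Rbfox1 (-1.54 ± 0.09) and Mbnl1 (-0.91 ± 0.07), and of 6 thick filament assembly factors 2 were higher and 3 lower, led by Hsp90aa1 (0.99 ± 0.20) and Unc45b (-0.84 ± 0.08), a myosin chaperone.

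The M-band partners called higher in adults were 12 of 14 in soleus, 11 in vastus intermedius, 12 in vastus lateralis and 12 in gastrocnemius, with 1, 1, 2 and 2 called lower. Over all 16402 genes tested, 5853, 5665, 5778 and 6064 were called higher in these muscles. With total counts 9, 9, 8 and 10 of the partners were higher and 3, 4, 5 and 4 lower. Over all genes that scaling called 3047, 2779, 2261 and 2522 higher and 10060, 10165, 11723 and 11565 lower in the same muscles. Obsl1, which encodes an M-band ligand of titin and myomesin, fell in each muscle (-1.93, -2.20, -1.32 and -1.89 in that order). Rbm20, the splicing factor that sets titin isoforms, rose by 1.51, 1.26 and 1.55 in soleus, vastus intermedius and gastrocnemius; in vastus lateralis it was at 0.81 and, with total counts, was called lower (-0.257, adjusted p = 0.0233). In the E18.5 thigh 9 of 14 M-band partners and 9 of 10 titin-binding and stretch partners were called higher than in the shank and 0 lower, with Ckm (1.01 ± 0.17) and Ankrd23 (0.88 ± 0.15) the largest of each list, and list medians of 0.48 and 0.60 against -0.03 over all genes, of which 14.1% were called higher. With total counts 8 M-band partners were higher and 2 lower, and 8 titin-binding and stretch partners were higher and 0 lower. Over all genes that scaling called 1364 higher and 5697 lower in the E18.5 thigh, with a median of -0.17.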

How the data were processed

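Messenger RNA libraries from 4 hindlimb muscles at 2 stages were used as the authors' deposited gene counts, raw and not normalized, with reads aligned to mm10; STAR 2.7.11, featureCounts (Subread 2.0.6), Trimmomatic 0.39.0 and DESeq2 1.44.0 are named in the submitters' processing notes. The authors' deposited comparison tables give log2 fold changes and adjusted p-values and were used only where named. Columns carry a muscle, a stage and a date tag, so animals were lettered by tag; the title's animal numbers could not be matched to columns. The table held 48 libraries, of which 47 were used. Symbols came from the deposited tables for 18780 genes and from RefSeq for 6501 genes, and 1898 had none. No source used here states the strandedness of counting, so antisense reads cannot be set apart.

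Counts were fitted with edgeR 4.0.16 in R 4.3.3 (TMM scaling, filterByExpr, quasi-likelihood F test, Benjamini-Hochberg over all genes tested, threshold 0.05). Muscle comparisons used the libraries of 1 stage (23 adult or 24 E18.5, muscle as 4 levels), and age comparisons and the difference between stages used 8 groups. The standard error is the size of the log2 fold change divided by the root of F. Shares used counts per kilobase of exon length, as deposited. The fitting code was tested on simulated data. Depth was 14935541 to 32383982 counts per library, and a floor of 3 counts corresponds to 0.0635 to 0.38 CPM; it covers counting error only. No pair of libraries within a group agreed within counting noise (lowest chi-square per degree of freedom 10.2).

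Same-animal libraries of different muscles deviated from their group means with a mean correlation of 0.102 in adults and 0.177 at E18.5, against -0.0207 and -0.0352 between animals; the pairing comes from the date tags. Each animal is a separate mouse with its own tag, and some share the date in it, so there are 5 adult and 4 E18.5 dates. Alternatives were RLE, upper-quartile and total-count scaling, no filter, DESeq2 1.42.0, the animal as a block, the left-out library kept, an 8-group fit and leaving out each animal. All 7 genes are named in every comparison; of the 5 pathway lists the called genes of largest size are named, with Mybpc3, Obsl1 and Rbm20; 1 further gene is not reported here. The genes and lists were chosen with earlier results of these data known, and thigh minus shank was added after the values were seen.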

Additional observations from a re-analysis of the deposited data

Results flagged for a closer look

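Of 56 combinations of gene and group, 3 had a library standing apart from the rest by Dixon's criterion, which chance alone meets in about 1 in 20 groups. Myom1 in adult vastus intermedius was lowest in animal A, at 2321 CPM against 2706 to 2805 CPM in the other 4. Myom2 in adult vastus lateralis was highest in animal D, at 4400 CPM against 2660 to 3264 CPM. Mybph in adult vastus intermedius was highest in animal E, at 62.8 CPM against 2.15 to 11.998 CPM.

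The shank pair and the thigh pair of adult muscles differed in their slow to fast steps, by the test of the difference itself, for Myom3 (-5.28), Mybpc2 (-4.12) and Myom2 (-2.09). The slow to fast contrast differed between adults and E18.5 for Myom3 (5.53), Mybpc1 (2.35), Mybph (-4.00), Mybpc2 (-3.79), Myom2 (-1.95) and Ttn (-0.50), on the log2 scale.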

How the results depend on the processing

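RLE scaling, upper-quartile scaling and no filter changed no direction and no call among the 92 gene values that were called or at least 0.2 in size on the log2 scale. Total counts turned the sign of Myom1 in adult slow-biased minus fast-biased (0.145), soleus minus gastrocnemius (0.175) and the stage difference (0.117), and of Mybpc1 (-0.125), Myom3 (-0.258) and Myom2 (-0.122) with age in vastus intermedius. Mybph in the shank minus thigh difference, which was not called, turned to 0.348 with the replicate block and ranged between -1.468 and 1.136 when animals were left out in turn. The block ended no call. Calls that single genes lost or gained in the other fits are given beside those results. The 8-group fit and the fit without animal E called Myom1 lower in adult slow-biased muscles (adjusted p = 0.0453 and 0.0494).

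Counts of genes called over all genes moved by over 1.5 times as follows. At E18.5, slow-biased minus fast-biased called 58 genes, 262 with DESeq2, 212 with the block, and 10 (without animal D) to 237 (without animal B). E18.5 soleus minus gastrocnemius called 45 genes, 164 with DESeq2, 101 with the block and 9 to 34 with an animal left out. E18.5 vastus intermedius minus vastus lateralis called 5 genes, 19 with DESeq2, 3 with total counts, 8 in the 8-group fit, and 0 (without animal D) to 100 (without animal B). E18.5 thigh minus shank called 3909 genes and 7061 with total counts. With the left-out library kept, adult soleus minus vastus intermedius called 1095 genes in place of 2464, vastus lateralis minus gastrocnemius 220 in place of 807, the shank minus thigh difference 214 in place of 1159 and adult thigh minus shank 1118 in place of 2736. With an adult animal left out these 4 called 1451 to 2590, 399 to 751, 540 to 1064 and 1477 to 2745 genes. The share of calls that were higher moved with total counts, to 8368 higher and 1983 lower in adult slow-biased minus fast-biased (5139 and 4302 with TMM) and to 2261 higher and 11723 lower in vastus lateralis with age (5778 and 7024 with TMM). The causes were not tested.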
